A study of Rattus norvegicus with 9 samples.

Results

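The genes described here are 10 members of 2 linked inflammatory routes, picked by symbol from the 19608 genes of the table. They are the cytokine genes Il6, Lif and Il11, the receptor chains Il6st and Osmr, the signal carrier Stat3 and its brake Socs3, the cyclooxygenases Ptgs2 and Ptgs1, and the terminal synthase Ptges. They were measured by RNA sequencing in HEI-OC1, an immortalized line from the mouse organ of Corti that the labels call hair cell-like. Cells were given cisplatin, a platinum drug that crosslinks DNA, neomycin, an aminoglycoside antibiotic, or phosphate-buffered saline (PBS) as the control. There were 3 libraries per group, 9 in all, each taken after 24 h, and the sources used here give no doses. The number that ends the cell-line label changes from sample to sample, but the series text names only HEI-OC1, and all libraries were handled as 1 line. No label tells whether replicates were separate cultures. The p-values therefore measure the spread among these libraries alone, which may be technical.

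As background, the cytokines of the IL-6 family bind a receptor of their own or a soluble one and then pair with the shared chain gp130, the product of Il6st, which switches on JAK kinases and STAT3. STAT3 in turn raises Socs3, whose product shuts off gp130. Cyclooxygenases turn arachidonic acid from the membrane into prostaglandin H2, and terminal synthases such as the product of Ptges convert it to prostaglandin E2. Il6 and Ptgs2 are known as early inflammatory genes with short-lived mRNA, and both are known in the cochlea as genes of the response to noise and to ototoxic drugs.

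The read totals used to scale the values were 27516629 to 40221089 per library, worked out from the steps of the values. Reads of the genes in the table made up 99.95% to 99.97% of each total. With these totals 3 reads on a gene of 1 kb stood for 0.0746 to 0.109 FPKM (fragments scaled to gene length and to library size). No replicates agreed within sampling noise, and the largest distance (chi-square per degree of freedom of 14.2) was between PBS replicates 1 and 3. The labels and the gene identifiers are those of rat, mm10, a mouse build, stands in the submitters' processing notes, and the line is a mouse line by general knowledge. Levels are therefore set against each other mainly between libraries. Of 11 hair cell markers in the table only Myo7a and Myo6 averaged over 1 FPKM, and Pou4f3, a defining hair cell factor, was at 0.0152 FPKM in cisplatin cells and listed at 0 in neomycin and PBS cells, so the hair cell label is not borne out by these markers. The summed level of 10 fibroblast markers was 1333 to 1482 FPKM in cisplatin, 4078 to 4128 in neomycin and 4781 to 5172 FPKM in PBS libraries, most of it from the collagen genes Col1a1, Col1a2 and Col3a1. Gene by gene, 1 of 7 tested fibroblast markers rose (0 under the other scalings) and 6 fell with cisplatin, while with neomycin 4 rose (Pdgfra, Pdgfrb, Thy1 and Lum) and 2 fell (Col1a1 and Col1a2). The summed level of 9 supporting cell markers was 210 to 218 FPKM in cisplatin, 157 to 162 in neomycin and 171 to 176 FPKM in PBS libraries, most of it from Cdkn1b and Hes1. Gene by gene, 4 of 6 tested rose with cisplatin (3 under the other scalings, where the call of Cdkn1b was lost) and 2 fell (Sox9 and Jag1). With neomycin 2 rose and 3 fell (4 under the other scalings). The part of the fibroblast and supporting cell markers in the results below was not tested. The 7 leukocyte markers in the table summed to 8.07 to 9.21 FPKM in cisplatin, 8.92 to 9.28 in neomycin and 6.80 to 7.71 FPKM in PBS libraries, most of it from Cd14, a gene of the innate response that averaged 7.02 FPKM in cisplatin, 8.77 in neomycin and 6.88 FPKM in PBS cells. Cd68, a macrophage marker under the filter, averaged 1.68 FPKM in cisplatin (227 reads), 0.192 in neomycin (21 reads) and 0.204 FPKM in PBS cells (26 reads), and its cisplatin libraries were above all others, as those of Il6 and Ptgs2 were. Itgam and Tyrobp averaged at most 0.0145 FPKM in any group. Their part in the results was not tested either. The 6 endothelial markers summed to 0.448 to 0.699 FPKM in cisplatin, 2.93 to 3.13 in neomycin and 2.16 to 2.54 FPKM in PBS libraries.

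The 250 bases before the annotated start of the 3 inducible members with an entry, Il6, Ptgs2 and Il11, are shown because their levels moved most. They are the RefSeq sequences of rat (assembly GRCr8), matched by symbol, and not sequences of these cells. Capitals mark the motifs found by a search of both strands.
Il6, chr4:5894576-5894825, minus strand: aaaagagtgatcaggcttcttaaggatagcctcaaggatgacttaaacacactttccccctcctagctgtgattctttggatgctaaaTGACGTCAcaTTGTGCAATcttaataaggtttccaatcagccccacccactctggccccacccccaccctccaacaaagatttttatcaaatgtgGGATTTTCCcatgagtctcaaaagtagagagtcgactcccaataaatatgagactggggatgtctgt
Ptgs2, chr13:64713813-64714062, plus strand: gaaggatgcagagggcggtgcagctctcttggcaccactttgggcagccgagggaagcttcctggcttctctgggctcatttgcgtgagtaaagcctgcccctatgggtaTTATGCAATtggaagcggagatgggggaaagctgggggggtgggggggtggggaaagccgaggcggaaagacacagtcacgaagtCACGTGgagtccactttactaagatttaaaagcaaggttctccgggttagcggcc
Il11, chr1:78098372-78098621, plus strand: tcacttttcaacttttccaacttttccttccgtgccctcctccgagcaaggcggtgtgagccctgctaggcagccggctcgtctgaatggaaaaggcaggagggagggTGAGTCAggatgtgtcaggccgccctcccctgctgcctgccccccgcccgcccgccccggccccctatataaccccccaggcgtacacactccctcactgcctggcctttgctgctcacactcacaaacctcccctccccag
In Il6 the capitals mark, from left to right, a CRE match (TGACGTCA), the letters of a C/EBP site (TTNNGCAAT) and those of an NF-kB site (GGANTTTCC). They lie at -162 to -155, -152 to -144 and -67 to -59 from the start. In Ptgs2 they mark a C/EBP match at -140 to -132 and an E-box (CACGTG) at -55 to -50. In Il11 they mark an AP-1 match (TGANTCA) at -142 to -136. Osmr, not printed, had an AP-1 match at -33 to -27. Among 33469 rat windows of this length the NF-kB letters occurred in 1.08%, CRE in 1.59%, C/EBP in 2.04%, the E-box in 5.59%, AP-1 in 6.34% and the STAT letters TTCNNNGAA in 7.67%. No motif overlapped another, and none of the 6 motifs was found in the windows of Il6st, Stat3, Socs3, Ptgs1 and Ptges, which says only that these letters are not there. Of the 10 members 9 had an entry. Only the first entry of a gene was searched, so other annotated starts, where present, were not. Lif is named only.

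**Figure D1:**
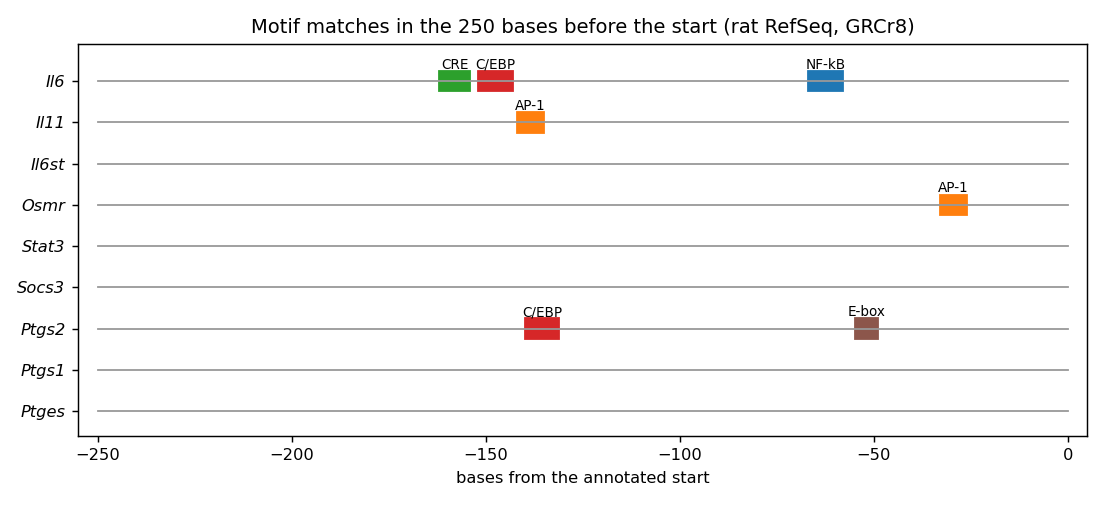
Motif matches (boxes) in the 250 bases before the annotated start of the 9 genes with a rat RefSeq entry; the x axis gives bases from the start. Il6 holds 3 matches, Ptgs2 holds 2, Il11 and Osmr hold 1 each and the other genes none.

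Cisplatin-treated cells carried several times more mRNA of the cytokines Il6, Lif and Il11 and of the cyclooxygenase Ptgs2 than PBS-treated cells, a smaller excess of Stat3, and less Il6st, while neomycin-treated cells carried less Il6, Lif and Ptgs2 than PBS-treated cells. Of the 9 members tested, 6 were called higher in cisplatin than in PBS cells, where 47.5% of all 10532 tested genes were called higher, and 2 were called lower, against 30.5% of all. In neomycin cells none of the 9 was called higher and 7 were called lower than in PBS cells, against 37.5% and 28.7% of all tested genes. Between the drugs 7 were higher in cisplatin than in neomycin cells (45.0% of all) and 1 was lower (36.6% of all). A call is an adjusted p under 0.05 in limma on log2(FPKM + 1), with Benjamini-Hochberg adjustment over all tested genes. Since so many genes were called, the share of members called says little, and the size of each change is given for every member. Il11 passed the filter of a mean of 1 FPKM through its cisplatin libraries, and Ptges did not pass it. The comparisons with PBS share the same 3 PBS libraries. The libraries are bulk RNA, so fewer cells that make an mRNA and less of it per cell cannot be told apart.

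**Figure D2:**
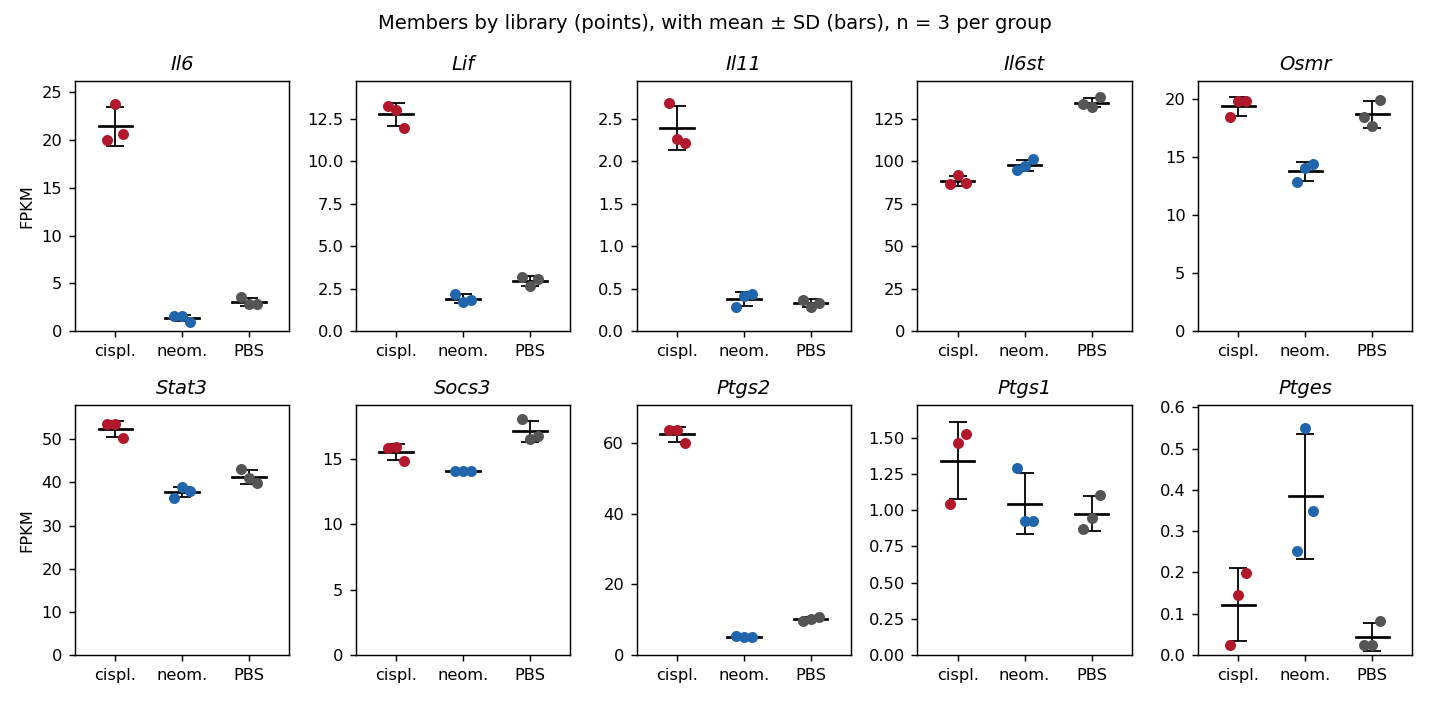
FPKM of the 10 genes in each library (points) with the mean and SD of each group (bars, n = 3), cisplatin left, neomycin in the middle, PBS right; every y axis starts at 0. Cisplatin libraries stand apart at the top for Il6, Lif, Il11 and Ptgs2, PBS libraries for Il6st, and for Ptges the neomycin libraries are highest.

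Among the ligands, Il6 (Entrez gene 24498), which encodes the founding cytokine of the family, had 19.97, 23.8 and 20.6 FPKM in cisplatin, 1.62, 1.56 and 0.978 FPKM in neomycin and 3.53, 2.89 and 2.80 FPKM in PBS libraries. Every cisplatin library was far above all others, every neomycin library was below all PBS libraries, and no groups overlapped. The mean was 6.97 times higher in cisplatin than in PBS cells (log2 fold change 2.46 ± 0.11 SE on the log2(FPKM + 1) scale, limma adjusted p = 8.5e-11), and 0.451 times the PBS mean in neomycin cells (log2 fold change -0.78 ± 0.11, adjusted p = 2.1e-05). Cisplatin exceeded neomycin by 15.4 times in the mean (log2 fold change 3.24 ± 0.11, adjusted p = 4.3e-12). Because the added 1 FPKM shrinks changes of low genes, the same contrasts on recovered reads (limma-voom) gave 2.81 against PBS for cisplatin and -1.18 for neomycin.

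Lif (Entrez gene 60584), leukemia inhibitory factor, which signals through gp130 and the LIF receptor, gave the same order of groups. It had 13.3, 13.03 and 12 FPKM in cisplatin, 2.21, 1.72 and 1.85 in neomycin and 3.22, 2.65 and 3.08 FPKM in PBS libraries. The 3 groups did not overlap. Lif rose by 1.79 ± 0.08 in cisplatin cells (adjusted p = 9.1e-11), or 4.28 times in the mean, and fell by 0.45 ± 0.08 in neomycin cells against PBS (log2 scale, adjusted p = 1.9e-04), to 0.645 times the mean of PBS. With 8186 reads summed over the cisplatin, 995 over the neomycin and 1801 over the PBS libraries, Lif was the best counted of the 3 cytokines.

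Il11 (Entrez gene 171040), a cytokine of the same family linked to stromal and bone cells, behaved otherwise under neomycin. Its level was 2.68, 2.26 and 2.22 FPKM in cisplatin, 0.283, 0.412 and 0.438 in neomycin and 0.371, 0.287 and 0.335 FPKM in PBS libraries. The cisplatin libraries stood apart from all others, while the neomycin and PBS libraries overlapped. Cisplatin cells carried 7.21 times the PBS mean (log2 fold change 1.35 ± 0.08, adjusted p = 2.0e-09, and 2.83 on recovered reads). For neomycin against PBS the log2 fold change was 0.05 with a 95% interval of -0.12 to 0.22 (adjusted p = 0.611), from 94 summed reads in neomycin and 95 in PBS libraries, and quantile normalization turned it to -0.10. Against neomycin, cisplatin cells were higher by 2.24 ± 0.08 for Lif and 1.30 ± 0.08 for Il11 (log2 fold changes, adjusted p = 7.3e-12 for Lif and 2.2e-09 for Il11).

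The other ligands of the family were listed from textbook knowledge. Over the 11 ligand genes in the table the summed level was 52.3 ± 1.88 FPKM in cisplatin, 12.5 ± 0.79 in neomycin and 14.7 ± 0.611 FPKM in PBS cells (SD, n = 3). Of the 7 tested ligands 6 rose and 0 fell in cisplatin cells, with a median log2 fold change of 0.80 against 0.12 over all tested genes, and 3 rose and 3 fell in neomycin cells, with a median of 0.05 against 0.04 (-0.10 with quantile normalization). Of all tested genes 47.5% were called higher and 30.5% lower with cisplatin, and 37.5% higher and 28.7% lower with neomycin, and these shares are the background of every list count against PBS. Clcf1, a ligand of the ciliary neurotrophic factor receptor, had 10.7, 9.76 and 11.3 FPKM in cisplatin, 3.93, 3.45 and 3.98 in neomycin and 5.35, 5.50 and 6.17 FPKM in PBS libraries. It thus shared the order of Il6 and Lif with no overlap, and its log2 fold changes were 0.80 ± 0.07 for cisplatin and -0.48 ± 0.07 for neomycin against PBS. Ctf1, cardiotrophin, rose with both drugs (log2 fold change 0.39 ± 0.11 for cisplatin and 0.53 ± 0.11 for neomycin). With a PBS mean of 0.707 FPKM (125 reads), Ctf1 passed the filter through its drug libraries. Under the filter, Ebi3, a subunit of IL-27 and IL-35, had 50, 86 and 68 reads in cisplatin, 22, 8 and 16 in neomycin and 0, 1 and 2 reads in PBS libraries. Its partner Il27 averaged 0.00845 FPKM in cisplatin cells, as low as Osm (0.00932 FPKM) and Ctf2 (0.0299 FPKM).

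Il6st (Entrez gene 25205), the gp130 chain shared by the family, was lower with both drugs. It had 86.5, 91.8 and 87.0 FPKM in cisplatin, 94.8, 97.1 and 101 in neomycin and 134, 132 and 138 FPKM in PBS libraries. All PBS libraries were above all neomycin libraries, and these above all cisplatin libraries. Il6st fell by 0.60 ± 0.04 with cisplatin (log2 scale, adjusted p = 9.6e-09) and by 0.46 ± 0.04 with neomycin (adjusted p = 4.9e-07), to 0.658 times the PBS mean in cisplatin and 0.726 times in neomycin cells. The gap between the drugs was small, -0.14 ± 0.04 for cisplatin against neomycin (adjusted p = 0.0061; -0.35 with quantile normalization).

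Osmr (Entrez gene 310132), the oncostatin M receptor chain, had 18.4, 19.8 and 19.8 FPKM in cisplatin, 12.8, 14.1 and 14.4 in neomycin and 18.5, 17.6 and 19.9 FPKM in PBS libraries. Cisplatin and PBS libraries overlapped, and all neomycin libraries lay below both. The log2 fold change for cisplatin against PBS was 0.05 (95% interval -0.08 to 0.18, adjusted p = 0.443), and it turned to -0.09 with TMM factors, -0.11 with quantile normalization and -0.08 with median-of-ratios factors. Neomycin cells were lower than PBS cells by -0.41 ± 0.06 (adjusted p = 3.2e-05), and cisplatin cells higher than neomycin cells by 0.46 ± 0.06 (adjusted p = 4.5e-06).

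The 8 receptor genes of the family summed to 127 ± 4.2 FPKM in cisplatin, 145 ± 4.27 in neomycin and 177 ± 4.41 FPKM in PBS cells (SD, n = 3), most of it from Il6st. Of the 5 tested receptors 1 rose and 3 fell with cisplatin, with a median log2 fold change of -0.29, and 2 rose and 2 fell with neomycin, with a median of -0.18. Lifr, the partner of gp130 for Lif, had 4.84, 5.48 and 5.21 FPKM in cisplatin, 10.1, 10.9 and 11.4 in neomycin and 7.99, 8.82 and 9.21 FPKM in PBS libraries. The groups did not overlap, with Lifr lowest in cisplatin cells, where its ligand was highest (log2 fold change -0.65 ± 0.07 for cisplatin and 0.29 ± 0.07 for neomycin against PBS). Il11ra1, the receptor of Il11, also fell with cisplatin (-0.29 ± 0.06) and rose with neomycin (0.56 ± 0.06), and is uncertain because mouse carries a near-identical copy. Il6r, the receptor of Il6, was the one that rose with cisplatin, by 0.38 ± 0.09, and its value for neomycin was -0.18 ± 0.09 (adjusted p = 0.106, and 0.0101 to 0.0431 under 3 other scalings). Cntfr, Il27ra and Il31ra stayed at or below 0.0505 FPKM in every group.

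Stat3 (Entrez gene 25125), the transcription factor that carries the gp130 signal, had 53.5, 53.6 and 50.3 FPKM in cisplatin, 36.5, 38.9 and 37.9 in neomycin and 43.0, 40.9 and 39.7 FPKM in PBS libraries. The cisplatin libraries were all highest and the neomycin libraries all lowest, though only just below PBS. Stat3 rose by 0.34 ± 0.05 in cisplatin cells (adjusted p = 1.2e-05; 0.15 to 0.21 under the other scalings, which are TMM factors, quantile normalization and median-of-ratios factors). Its fall of 0.12 ± 0.05 in neomycin cells (log2 scale, adjusted p = 0.033) was lost when any of 4 libraries was left out, neomycin replicate 1 (adjusted p = 0.111) or 3 (0.0574) or PBS replicate 1 (0.105) or 2 (0.0591). It was also lost with no variance trend (0.0527), with only the compared groups in the fit (0.0512) and with array weights (0.0811). With TMM factors it was larger (-0.21, adjusted p = 0.00213).

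Socs3 (Entrez gene 89829), the feedback inhibitor that STAT3 induces, did not follow Stat3. It had 15.9, 15.9 and 14.8 FPKM in cisplatin, 14.1, 14.1 and 14.1 in neomycin and 18.04, 16.6 and 16.7 FPKM in PBS libraries. All PBS libraries were highest and all neomycin libraries lowest, with cisplatin between and no overlap. Socs3 fell by 0.26 ± 0.05 with neomycin (log2 scale, adjusted p = 4.4e-04) and by 0.13 ± 0.05 with cisplatin (adjusted p = 0.0285). The call for cisplatin was lost on leaving out cisplatin replicate 3 (adjusted p = 0.119) or PBS replicate 1 (0.104), and the change was larger under the other scalings (-0.27 to -0.26, adjusted p = 3.0e-04 with TMM factors). The value of 0.13 ± 0.05 for cisplatin against neomycin (adjusted p = 0.0281) was lost with TMM factors (0.07, adjusted p = 0.211), quantile normalization (0.04, 0.489) and median-of-ratios factors (0.08, 0.153), and without cisplatin replicate 1 or 2 or any one neomycin replicate (0.0535 to 0.0916).

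**Figure D3:**
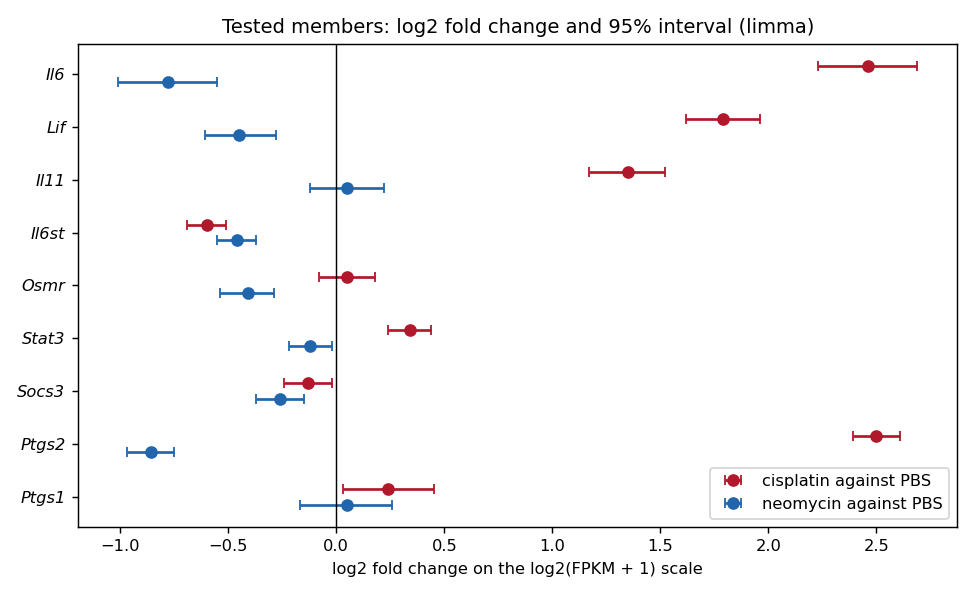
Log2 fold change on the log2(FPKM + 1) scale (points) with its 95% interval (bars, limma) for the 9 tested genes, cisplatin against PBS above neomycin against PBS for each gene. Of the genes whose intervals exclude 0 under both drugs, Il6, Lif, Stat3 and Ptgs2 lie on opposite sides of 0. Il6st and Socs3 lie below 0 under both. The intervals of Osmr for cisplatin and of Il11 and Ptgs1 for neomycin include 0.

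JAK and STAT genes were mostly lower with cisplatin, the other direction from Stat3. Of 13 tested genes, Stat3 among them, 2 rose (Stat3 and Grb2) and 9 fell, where 30.5% of all tested genes fell (median log2 fold change -0.22), and with neomycin 4 rose and 4 fell (median 0.05, and -0.02 with TMM factors). Jak2, a kinase bound to gp130, had 30.8, 31.9 and 33.9 FPKM in cisplatin, 21.4, 22.7 and 23.0 in neomycin and 34.1, 39.5 and 39.7 FPKM in PBS libraries, lowest in every neomycin library (log2 fold change -0.73 ± 0.06 for neomycin and -0.22 ± 0.06 for cisplatin against PBS). Ptpn11, the SHP2 phosphatase that links gp130 to RAS signalling, fell by 0.89 ± 0.04 with cisplatin and by 0.18 ± 0.04 with neomycin (log2 scale). Stat5a fell by 0.65 ± 0.08 with cisplatin and rose by 0.68 ± 0.08 with neomycin (log2 scale). Tyk2, another JAK kinase, rose by 0.48 ± 0.07 with neomycin, and Grb2, an adaptor to RAS, by 0.34 ± 0.04 with cisplatin.

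Among 14 tested brakes on JAK-STAT signalling 9 rose and 2 fell with cisplatin (median 0.29), and 9 rose and 4 fell with neomycin (median 0.16; 5 to 6 rose under the other scalings). The background is 47.5% of all tested genes higher with cisplatin and 37.5% with neomycin. Cish, a SOCS family member known as a target of STAT5, had 6.58, 6.01 and 5.71 FPKM in cisplatin, 4.23, 3.93 and 3.19 in neomycin and 1.87, 1.72 and 1.91 FPKM in PBS libraries. It was thus higher in every library of either drug than in any PBS library (log2 fold change 1.32 ± 0.08 for cisplatin and 0.75 ± 0.08 for neomycin). Ptpn2, a phosphatase that acts on JAKs and STATs, rose by 0.36 ± 0.07 with cisplatin and fell by 0.63 ± 0.07 with neomycin, and Socs5 went the same ways (0.26 ± 0.04 for cisplatin and -0.42 ± 0.04 for neomycin). Ptpn6, the SHP1 phosphatase, rose with both (0.47 ± 0.12 for cisplatin and 0.72 ± 0.12 for neomycin), and Pias4 rose by 0.72 ± 0.05 with cisplatin. With a PBS mean of 0.545 FPKM (133 reads), Ptpn6 passed the filter through its drug libraries.

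Of 19 tested genes known to respond to STAT3, 15 rose and 2 fell with cisplatin, with a median log2 fold change of 0.89 and 8 rises of at least 2-fold. With neomycin 5 rose and 6 fell (median 0.03; 3 and 7 with TMM factors, and medians of -0.06 to -0.04 under the other scalings). Tnfrsf12a, the TWEAK receptor, averaged 743 FPKM in cisplatin, 163 in neomycin and 158 FPKM in PBS cells (log2 fold change 2.23 ± 0.06 for cisplatin against PBS), and Junb, an AP-1 subunit, 305 FPKM in cisplatin, 65.1 in neomycin and 69.7 FPKM in PBS cells (2.12 ± 0.06). Vegfa, the endothelial growth factor, rose by 0.82 ± 0.06 with cisplatin and fell by 1.03 ± 0.06 with neomycin (log2 scale). Hif1a, the oxygen-sensing factor, fell with both (-0.91 ± 0.07 for cisplatin and -0.23 ± 0.07 for neomycin), and the kinase gene Pim2 rose with both (1.42 ± 0.09 for cisplatin and 0.86 ± 0.09 for neomycin). Most of these genes also answer to other factors, and Junb, Cebpb and Cebpd stand in the list of transcription factors below as well. Socs3, which fell slightly with cisplatin, was counted among the brakes and not in this list. The 5 list genes under the filter, Fgg, Hamp, A2m, Batf and Saa3, averaged at most 0.194 FPKM in any group. Over the 82 tested genes that the deposited annotation places in the KEGG JAK-STAT pathway, 35 rose and 32 fell with cisplatin and 36 rose and 24 fell with neomycin (30 and 27 with TMM factors). These counts stand beside the shares over all tested genes, 47.5% higher and 30.5% lower with cisplatin and 37.5% higher and 28.7% lower with neomycin. The medians were 0.05 for cisplatin (-0.09 to -0.03 under the other scalings) and 0.11 for neomycin (0.03 to 0.05).

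**Figure D4:**
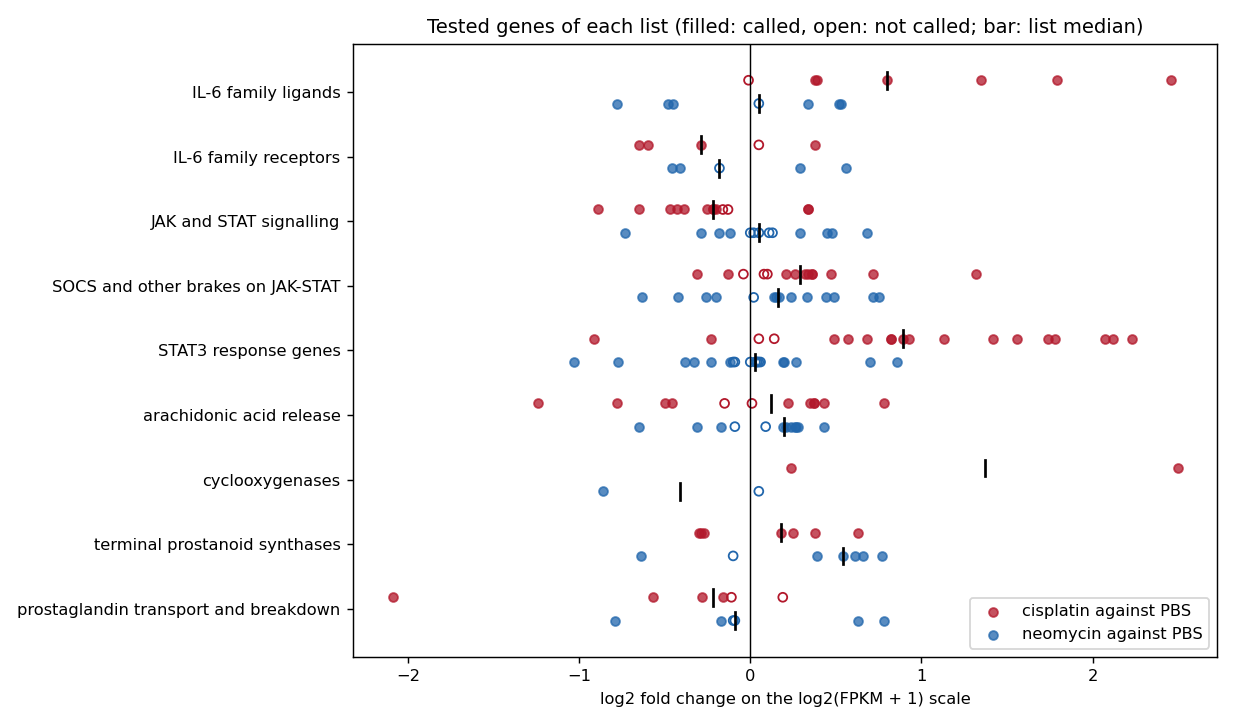
Log2 fold change of each tested gene in 9 gene lists, cisplatin against PBS above neomycin against PBS in each list; filled points were called, open ones were not, and the vertical bar is the list's median. Ligands and STAT3 response genes reach far to the right under cisplatin, while under neomycin the points of most lists stay within 1 of 0.

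On the prostaglandin side, Ptgs2 (Entrez gene 29527), the inducible cyclooxygenase COX-2, had 63.7, 63.5 and 60.04 FPKM in cisplatin, 5.22, 5.15 and 5.18 in neomycin and 9.73, 10.1 and 10.9 FPKM in PBS libraries. The 3 groups were far apart and the neomycin libraries nearly equal. Ptgs2 rose 6.11 times in the mean with cisplatin (log2 fold change 2.50 ± 0.05, adjusted p = 1.3e-13) and fell to 0.507 times the PBS mean with neomycin (log2 fold change -0.86 ± 0.05, adjusted p = 1.2e-08). The mean in cisplatin cells was 12.03 times that in neomycin cells (log2 fold change 3.36 ± 0.05, adjusted p = 8.2e-15). Among the 10532 tested genes, Ptgs2 ranked 22 and Il6 ranked 23 from the top by log2 fold change of cisplatin against PBS on the log2(FPKM + 1) scale, Lif ranked 86 and Il11 ranked 236. Their order depends on that scale: on recovered reads (limma-voom) the log2 fold change was 2.83 for Il11, 2.81 for Il6, 2.61 for Ptgs2 and 2.10 for Lif. Ptgs2 was the only member whose fall with neomycin passed a test against a 1.5-fold change (limma treat, adjusted p = 0.00273).

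Ptgs1 (Entrez gene 24693), the constitutive cyclooxygenase COX-1, was low in all groups. It had 1.04, 1.46 and 1.53 FPKM in cisplatin, 1.29, 0.926 and 0.922 in neomycin and 0.872, 0.949 and 1.11 FPKM in PBS libraries. All 3 groups overlapped. The value for cisplatin against PBS was 0.24 ± 0.10 (log2 fold change, adjusted p = 0.0372), and this call was lost with TMM factors (0.145), with median-of-ratios factors (0.127), with no filter (0.0923) and without cisplatin replicate 2 or 3 or PBS replicate 1 or 2 (0.081 to 0.15, all adjusted p). With smaller pseudocounts or on recovered reads it was 0.41 to 0.45. For neomycin against PBS it was 0.05 (95% interval -0.17 to 0.26, adjusted p = 0.692), and -0.04 with quantile normalization or without neomycin replicate 1. The difference between the drugs, 0.19 (95% interval -0.02 to 0.41, adjusted p = 0.082), was called without cisplatin replicate 1 (adjusted p = 0.0152) or neomycin replicate 1 (0.0217), with quantile normalization (0.00631) and with array weights (0.0455). The ratio of Ptgs2 to Ptgs1 in FPKM was 61.2, 43.3 and 39.4 in cisplatin, 4.05, 5.56 and 5.62 in neomycin and 11.2, 10.6 and 9.80 in PBS libraries. The ratio did not overlap between groups. Its divisor Ptgs1 had only 71 to 171 reads per library.

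Ptges (Entrez gene 59103), the inducible prostaglandin E synthase usually paired with COX-2, was highest in neomycin cells, where Ptgs2 was lowest. It had 1, 7 and 10 reads (0.0241, 0.144 and 0.198 FPKM) in cisplatin, 9, 19 and 15 reads (0.253, 0.551 and 0.349 FPKM) in neomycin and 1, 1 and 4 reads (0.0245, 0.0232 and 0.0834 FPKM) in PBS libraries. All neomycin libraries were above all others, and cisplatin and PBS libraries overlapped. Per read of the scaling totals the summed rate in neomycin cells was 8.36 times that in PBS cells (exact 95% interval 3.54 to 24.0). That in cisplatin cells was 2.82 times the PBS rate (1.07 to 8.67). Cisplatin cells had 0.337 times the rate of neomycin cells (0.183 to 0.597). These intervals cover counting error only. Of the 6 PBS reads 4 were in PBS replicate 3, and without that library the ratio to PBS was 15.95 (4.16 to 136) for neomycin and 5.38 (1.29 to 47.8) for cisplatin. With another library left out the ratio of neomycin to PBS was 6.71 to 9.65, and the interval for cisplatin against PBS included 1 without cisplatin replicate 2 or 3 or PBS replicate 1 or 2. With no filter on low values limma gave a log2 fold change of 0.40 for neomycin against PBS (adjusted p = 0.00604), -0.30 for cisplatin against neomycin (adjusted p = 0.0159) and 0.10 for cisplatin against PBS (adjusted p = 0.373).

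The 7 genes of the list of terminal synthases that passed the filter were better expressed. The list also counts the reductase genes Akr1b8, Cbr1 and Cbr3, and Gstm2. These and Ptgis were the genes that rose with neomycin. Of 7 tested, 4 rose and 3 fell with cisplatin (median 0.18; 2 to 3 rose under the other scalings) and 5 rose and 1 fell with neomycin (median 0.54). The cisplatin count stands beside a background of 47.5% higher and 30.5% lower, and that for neomycin stands beside 37.5% higher and 28.7% lower. Ptges3, a prostaglandin E synthase that is also the HSP90 co-chaperone p23, had 328, 332 and 345 FPKM in cisplatin, 175, 179 and 187 in neomycin and 264, 296 and 287 FPKM in PBS libraries. The groups did not overlap (log2 fold change 0.25 ± 0.05 for cisplatin and -0.64 ± 0.05 for neomycin), and the cisplatin call was lost with TMM factors (0.10, adjusted p = 0.0677). Ptgis, prostacyclin synthase, had 2.14, 2.14 and 2.35 FPKM in cisplatin, 5.25, 4.85 and 5.64 in neomycin and 3.15, 2.80 and 2.88 FPKM in PBS libraries. Every neomycin library was highest and every cisplatin library lowest (log2 fold change 0.66 ± 0.07 for neomycin and -0.30 ± 0.07 for cisplatin). Akr1b8, an aldo-keto reductase, rose by 0.77 ± 0.06 with neomycin. The carbonyl reductase genes rose with both drugs, Cbr1 by 0.38 ± 0.09 with cisplatin and 0.61 ± 0.09 with neomycin, and Cbr3 by 0.63 ± 0.08 with cisplatin and 0.54 ± 0.08 with neomycin. Ptgds, Hpgds and Tbxas1, the synthases of prostaglandin D and thromboxane, averaged at most 0.0578 FPKM in any group.

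Upstream, the release of arachidonic acid moved less. Pla2g4a, the cytosolic phospholipase that supplies the cyclooxygenases, had 22.3, 23.4 and 25.3 FPKM in cisplatin, 17.6, 18.7 and 19.9 in neomycin and 21.1, 24.1 and 25.2 FPKM in PBS libraries. Cisplatin and PBS libraries overlapped (log2 fold change 0.01 ± 0.07, adjusted p = 0.869, and -0.15 to -0.12 under the other scalings), and all neomycin libraries were below both (-0.31 ± 0.07). Of 12 tested genes of this step 6 rose and 4 fell with cisplatin (median 0.12, equal to that of all tested genes; 5 and 5, with medians of -0.04 to -0.01, under the other scalings), and 7 rose and 3 fell with neomycin (median 0.20; 4 and 4, with a median of 0.14, with TMM or median-of-ratios factors). Mgll, a lipase that frees arachidonic acid from an endocannabinoid, fell by 1.24 ± 0.06 with cisplatin, and Anxa1, an inhibitor of phospholipase, rose by 0.78 ± 0.08 (log2 scale). Lpcat3 and Acsl4, which put arachidonic acid back into lipids, fell with cisplatin (-0.78 ± 0.05 for Lpcat3 and -0.50 ± 0.06 for Acsl4), and Acsl4 also fell with neomycin (-0.65 ± 0.06).

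Downstream, Abcc4, a transporter that carries prostaglandin E2 out of cells, went against Ptgs2 in cisplatin cells. It had 4.43, 4.47 and 4.43 FPKM in cisplatin, 11.9, 13.03 and 12.4 in neomycin and 22.1, 21.4 and 23.0 FPKM in PBS libraries. The groups were far apart, and Abcc4 fell by 2.09 ± 0.05 with cisplatin (log2 scale, adjusted p = 7.4e-13) and by 0.79 ± 0.05 with neomycin (adjusted p = 2.9e-08). Of 6 tested genes of prostaglandin transport and breakdown 0 rose and 4 fell with cisplatin and 2 rose and 2 fell with neomycin. Ptgr1, a reductase of prostaglandins, and the transporter gene Slco3a1 rose with neomycin (0.78 ± 0.10 for Ptgr1 and 0.63 ± 0.06 for Slco3a1), and Cbr4 fell with cisplatin (-0.57 ± 0.09). Hpgd, the main enzyme of prostaglandin breakdown, was listed at 0 in both drug groups and averaged 0.00577 FPKM in PBS cells. The prostanoid receptors were low. The 8 measured receptor genes summed to 1.86 ± 0.161 FPKM in cisplatin, 1.86 ± 0.333 in neomycin and 1.81 ± 0.0951 FPKM in PBS cells (SD, n = 3), and none passed the filter. The sums hide opposite differences between single receptors. Ptgfr, the prostaglandin F receptor, averaged 0.32 FPKM in cisplatin (215 reads), 0.801 in neomycin (433 reads) and 1.04 FPKM in PBS cells (649 reads), with no overlap between groups. Tbxa2r, the thromboxane receptor, averaged 0.82 FPKM in cisplatin, 0.434 in neomycin and 0.482 FPKM in PBS cells, and all its cisplatin libraries were above all others. Ptger1, a prostaglandin E2 receptor, averaged 0.633 FPKM in cisplatin, 0.367 in neomycin and 0.281 FPKM in PBS cells, with every cisplatin library above every PBS library. Ptgfrn, which encodes a partner protein of the prostaglandin F receptor and was the one tested gene of this list, fell by 0.61 ± 0.04 with cisplatin (log2 scale) and had a log2 fold change of 0.13 ± 0.04 with neomycin (adjusted p = 0.0118; 0.04 with TMM factors, adjusted p = 0.413). Ptger2, Ptger3 and Ptger4 averaged at most 0.0234 FPKM in any group. In the KEGG arachidonic acid pathway of the deposited annotation, 9 of 21 tested genes rose and 9 fell with cisplatin (5 and 9 with TMM factors), and 11 rose and 5 fell with neomycin (9 and 7 with TMM factors).

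**Figure D5:**
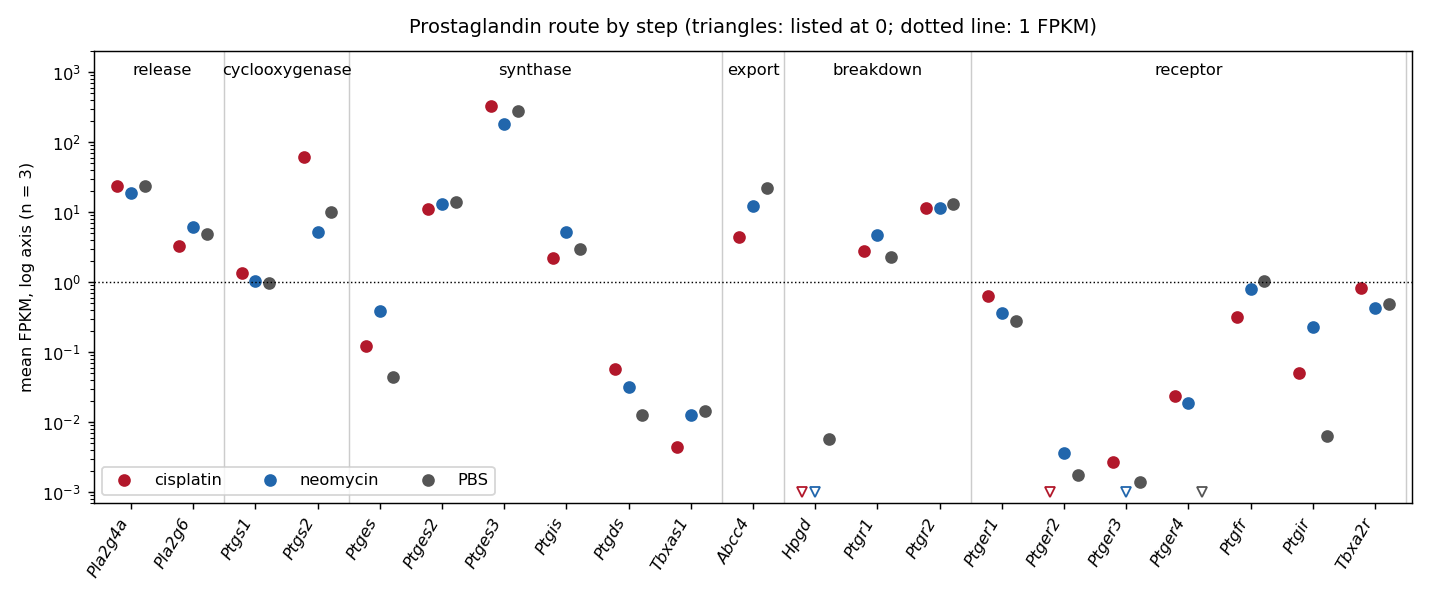
Mean FPKM (log axis, n = 3 per group) of genes along the prostaglandin route from the release of arachidonic acid to the receptors; triangles stand for genes listed at 0 and the dotted line marks 1 FPKM. Ptgs2 is highest and Abcc4 lowest in cisplatin cells, Ptges is under 1 FPKM in all groups and highest in neomycin cells, and the receptor genes lie at or under about 1 FPKM.

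Transcription factors known to act at the Il6 and Ptgs2 promoters were mostly higher with cisplatin. The list also counts Nfkbia, which encodes an inhibitor of NF-kB. Nfkbia averaged 60.4 FPKM in cisplatin, 33.8 in neomycin and 29.2 FPKM in PBS cells, and is among the genes that rose with cisplatin. Of 19 tested, 18 rose and 1 fell (16 and 1 under the other scalings, with medians of 0.81 to 0.85 against 0.97), and with neomycin 7 rose and 7 fell (median -0.10; 4 and 8, with medians of -0.19 and -0.18, with TMM and median-of-ratios factors). Fos averaged 46.0 FPKM in cisplatin, 5.19 in neomycin and 5.69 FPKM in PBS cells, and Fosl1 53.3 FPKM in cisplatin, 8.38 in neomycin and 9.16 FPKM in PBS cells, both AP-1 subunits. Rel, an NF-kB subunit, rose with both drugs (1.33 ± 0.09 for cisplatin and 0.34 ± 0.09 for neomycin against PBS). Atf4, which is known to bind CRE-like sites, rose with cisplatin and fell with neomycin (0.43 ± 0.05 for cisplatin and -0.56 ± 0.05 for neomycin), as Il6 and Ptgs2 did. Cebpd, a C/EBP factor, was the gene that fell with cisplatin (-0.23 ± 0.06), and it fell further with neomycin (-0.77 ± 0.06).

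The tested genes whose pattern was closest to each inducible member were found from log2(FPKM + 1) over the 9 libraries, each gene centred on its PBS mean. The members themselves and predicted, uncharacterized or pseudogene entries were left out of this search. Any of them may thus be closer than the genes named. For both Il6 and Ptgs2 the closest of the genes searched was Ccl2, a monocyte chemokine. Its root mean square difference was 0.235 for Il6 and 0.150 for Ptgs2. Ccl2 averaged 277 FPKM in cisplatin, 24.97 in neomycin and 42.8 FPKM in PBS cells. Pvr, an adhesion molecule (0.237), and Klf10, a transcription factor (0.259), came next for Il6, and Taf1d, a subunit of an RNA polymerase I factor (0.233), and Pvr (0.234) for Ptgs2. Those closest to Lif were Phlda1 (0.129), Jmjd6 (0.132) and the splicing factor gene Srsf7 (0.144). For Il11 they were Ccdc126 (0.075), the splicing factor gene Srsf2 (0.083) and Mafk (0.085), all with a log2 fold change between -0.01 and 0.07 for neomycin. The added 1 FPKM shrinks the change of Il11, which averaged 2.39 FPKM in cisplatin and 0.331 FPKM in PBS cells. Its 3 matches changed less in proportion. From PBS to cisplatin cells, Ccdc126 went from 6.48 to 18.8 FPKM, Srsf2 from 79.9 to 202 FPKM and Mafk from 4.21 to 11.4 FPKM. Ptges was not in the tested set.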

How the data were processed

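Groups and replicate numbers came from the sample titles. RNA came from a column kit and libraries from an mRNA kit, per the labels' protocols, which state no strand. The deposited values are FPKM, made by the authors (per the file headers), and cover 19608 genes. For aligner and counter, names were not given in the sources used here. Build mm10 is named in the submitters' processing notes. The identifiers are of rat, and 18532 of them (94.5%) were found in a rat reference (GRCr8).

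Whole reads were worked out from the steps of the FPKM values for 19608 genes, within 0.001 of a read. The 10532 genes that averaged 1 FPKM or more were tested on log2(FPKM + 1) with limma 3.58.1 in R 4.3.3. All 9 libraries were in the fit, with 1 mean per group, a mean-variance trend, Benjamini-Hochberg adjustment per comparison and 0.05 as threshold. The added 1 FPKM understates changes of low genes. Promoter windows came from RefSeq and motifs were searched on both strands.

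The 10 genes and the lists were chosen with earlier results of these data known. All members are named. From each list up to 5 others are named, those called with the largest change against PBS (up to 2 in each direction for each drug), and any ligand, receptor or synthase that was low or needed for the route. Some genes under the filter, and some that show what a list holds, are named as well. For Il6, Lif, Il11 and Ptgs2 the 3 closest genes are named, with members and predicted genes left out of the search. Of 227 list symbols 212 were in the table, and the others were not analysed here. A few genes of these lists are not reported here. Intervals on reads are exact at 95% and cover counting error only. Alternatives were other pseudocounts, filters and scalings, voom, no trend, 2 groups only, array weights, a replicate block, a test against 1.5-fold and each library left out.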

Additional observations from a re-analysis of the deposited data

How the results depend on the processing

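Over the alternatives in scaling, pseudocount, filter, weights and model, the tested members kept their direction and their side of the threshold in 301 values, lost a call in 9, gained one in 2 and turned in 6. With a library left out these numbers were 225, 15, 2 and 1. Against a minimum change of 1.5-fold (limma treat) 4 members were called for cisplatin against PBS, in place of 8, 1 for neomycin against PBS, in place of 7, and 4 for cisplatin against neomycin, in place of 8. Over all tested genes that test called 1892 for cisplatin against PBS, 426 for neomycin against PBS and 2637 for cisplatin against neomycin, in place of 8216, 6973 and 8598. By that test Il6, Lif, Il11 and Ptgs2 stayed called in both cisplatin contrasts and Ptgs2 in neomycin against PBS. With a library left out the counts ran from 6 to 8 for cisplatin against PBS, 6 to 7 for neomycin against PBS and 7 to 8 for cisplatin against neomycin. Direction turned only in uncalled values: Osmr for cisplatin against PBS (-0.09, -0.11 and -0.08 under TMM, quantile and median-of-ratios scaling), and for neomycin against PBS Il11 (-0.10, quantile) and Ptgs1 (-0.04, quantile; -0.006, array weights; -0.04 to 0.09 with a library left out, the lowest without neomycin replicate 1). The cause was not tested. TMM factors moved the median tested gene by -0.13 for cisplatin against PBS, where 48.5% of calls were then higher (3918 higher, 4165 lower) against 60.9% (5001 and 3215), and to 44.5% higher against 56.7% for neomycin against PBS, so small changes depend on scaling. Same-numbered libraries correlated at -0.046 to 0.304 in their deviations from group means, and differently numbered ones at -0.287 to 0.188. All same-numbered pairs of replicates 1 and 3 were positive. The labels state no pairing, and the numbers were not taken as pairs. With a replicate block 8, 7 and 8 members were called in the 3 comparisons, as without it. Depth limits the genes under the filter, such as Ptges and Ebi3. Leaving out single libraries for the Ptges read ratios was chosen after seeing the data.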

Other observations

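Genes listed for the stability and decay of short-lived cytokine mRNA were mostly higher in cisplatin than in neomycin cells. In that contrast 10 of 13 tested rose and 2 fell, beside 45.0% higher and 36.6% lower over all tested genes. The 13 include the kinase genes Mapkapk2 and Mapk14 and the NF-kB brake Tnfaip3. Against PBS, 10 rose and 3 fell with cisplatin (median log2 fold change 0.44), and 2 rose and 9 fell with neomycin (median -0.19). The 2 list genes under the filter were lower in every cisplatin than in any PBS library. Rbms3 averaged 0.0374 FPKM in cisplatin (76 reads), 1.28 in neomycin (2097 reads) and 1.11 FPKM in PBS cells (2119 reads). Celf2 averaged 0.419 FPKM in cisplatin (1128 reads), 1.17 in neomycin (2526 reads) and 0.768 FPKM in PBS cells (1942 reads). Zfp36, which speeds the decay of AU-rich mRNA such as that of Il6 and Ptgs2, averaged 35.3 FPKM in cisplatin, 8.56 in neomycin and 10.9 FPKM in PBS cells. Its log2 fold changes against PBS were 1.61 ± 0.07 for cisplatin and -0.32 ± 0.07 for neomycin, positive for cisplatin and negative for neomycin like those of Il6 and Ptgs2. Elavl1, which stabilizes such mRNA, rose by 0.26 ± 0.05 with cisplatin and fell by 0.53 ± 0.05 with neomycin (log2 scale), and Tia1, which blocks translation of Ptgs2, did likewise (0.34 ± 0.07 for cisplatin and -0.45 ± 0.07 for neomycin). Mapkapk2, a kinase that inhibits Zfp36, fell with both (-0.73 ± 0.06 for cisplatin and -0.19 ± 0.06 for neomycin). Tnfaip3, a brake on NF-kB, rose with both (2.81 ± 0.05 for cisplatin and 0.42 ± 0.05 for neomycin).

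Tnf and Il1a, cytokines that usually induce Il6 and Ptgs2, were under the filter. Tnf averaged 0.174 FPKM in cisplatin cells (32 reads, 0.103 to 0.251 FPKM per library) and was listed at 0 in neomycin and PBS cells. Il1a averaged 0.0277 FPKM in cisplatin cells (4 reads) and was listed at 0 in the others. Il1b was not analysed here. Among their receptors Tnfrsf1b rose with both drugs (1.02 ± 0.06 for cisplatin and 0.62 ± 0.06 for neomycin), Tnfrsf1a fell with both (-0.48 ± 0.04 for cisplatin and -0.20 ± 0.04 for neomycin), and Il1rl1, the receptor of IL-33, rose with both (2.33 FPKM in cisplatin, 1.72 in neomycin and 0.45 FPKM in PBS cells). Il1rl1 passed the filter through its drug libraries. The IL-1 antagonist Il1rn fell by 0.48 ± 0.12 with cisplatin, and Il1rap fell with both drugs (-0.20 ± 0.07 for cisplatin and -0.22 ± 0.07 for neomycin). Of the 8 tested genes of this list 3 rose and 3 fell with cisplatin (2 and 4 with TMM factors) and 4 rose and 2 fell with neomycin. In the lipoxygenase branch, the other route from arachidonic acid, Lta4h was the one tested gene, at 69.9 FPKM in cisplatin, 68.4 in neomycin and 59.2 FPKM in PBS cells. Under the filter, the lipoxygenase gene Alox15 had 159 reads summed over the cisplatin, 5 over the neomycin and 11 over the PBS libraries (0.383 FPKM in cisplatin, 0.0149 in neomycin and 0.0276 FPKM in PBS cells), and its cisplatin libraries were above all others. Aloxe3, a lipoxygenase-like gene of the skin, had 164 reads in cisplatin, 28 in neomycin and 5 in PBS libraries (0.394 FPKM in cisplatin, 0.0857 in neomycin and 0.0134 FPKM in PBS cells), likewise without overlap.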
